A study of Equus caballus with 4 samples.

Results

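The genes described here are 10 genes of the endoplasmic reticulum (ER) stress and amino acid response: *hspa5*, *hsp90b1*, *dnajb9*, *xbp1*, *atf6*, *atf4*, *ddit3*, *trib3*, *atf3* and *asns*. They were chosen by name, and their probes were taken from the horse array by gene symbol. By symbol 7 of the 10 genes were found, with 11 probes. The other 3 were on the array under another name, with 4 probes: *hsp90b1* as GRP94, *xbp1* as LOC100059209 and *hspa5* by its gene name in the probe description only. The array held 8336 tested gene symbols in all.

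The cells were equine satellite cells (ESC), the stem cells of skeletal muscle, from m. semitendinosus of stallions aged 6 months, and were taken after 3 days in differentiation medium. Cells of the HMB-treated group spent 24 h with 50 µM HMB (β-hydroxy-β-methylbutyrate, a metabolite of leucine) and met 3 mM H2O2 for the last 1 h, whereas the control group received the same H2O2 without HMB. Each of 4 arrays carried Cy5-labeled RNA of the HMB-treated group and Cy3-labeled RNA of the control group, and gave 1 log2 ratio per probe (HMB-treated over control; n = 4). The culture with the best viability and fusion was selected for the experiment. Hence the replicates may stem from a single horse. The labels give the control of every array the same replicate number, whereas the methods count as many control samples as HMB-treated ones. If the control was a single RNA, the p-values leave out the spread between control cultures. Dyes were not swapped and all arrays lay on 1 slide. Thus the treatment cannot be told apart from a dye effect. The arrays held no cells without H2O2, and hence the ratios describe HMB in H2O2-exposed cells and not the response to H2O2 itself.

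When unfolded proteins accumulate in the ER, sensors in its membrane start a response in which *xbp1* mRNA is spliced, the factor ATF6 is cut and released, and a kinase phosphorylates eIF2alpha. Phosphorylated eIF2alpha slows translation in general but lets ATF4 be made. The same step is reached by a separate kinase when amino acids are scarce, hence ATF4 and its targets serve both responses. In muscle cells the pathway is known to be active during differentiation, when the ER is remodeled.

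Across the array, 28.6% of the 24669 tested probes were called (12.1% higher and 16.4% lower), i.e., had an adjusted p of at most 0.05 (limma, Benjamini-Hochberg correction over all tested probes) and an FC of at least 1.3. Among gene symbols, each represented by its brightest probe, 27.3% were called, with 10.1% higher and 17.2% lower after HMB. Of the 10 genes, 2 were called higher (*xbp1* and *atf3*, the latter by 1 of its 5 probes) and 0 lower. Among the 7 genes found by symbol, 1 was called higher and 0 lower. With only 10 genes, these counts are too small to be set against the shares of the whole array. They say nothing particular about the 10 genes as a group. All 15 probes of the 10 genes lay well above background in both channels on all 4 arrays, and none was marked as an outlier or saturated. The median of the mean log2 ratio was -0.003 over the 10 genes and -0.09 over all tested symbols.

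**Figure D1:**
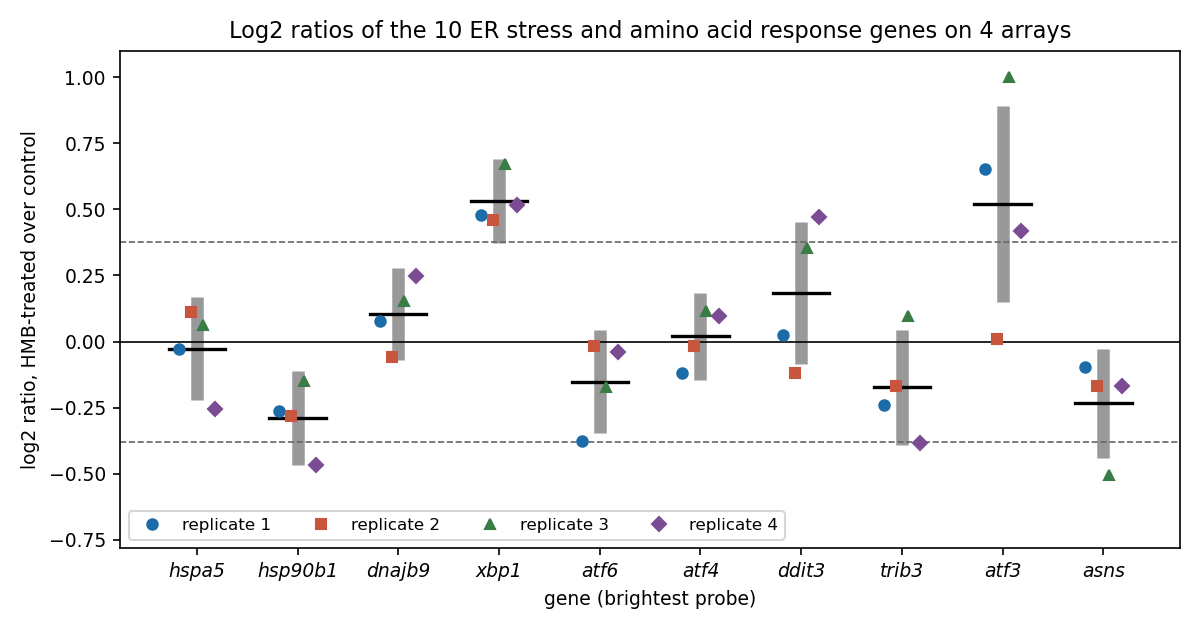
Log2 ratio (HMB-treated over control, y axis) of the brightest probe of each gene (x axis). Symbols are the 4 arrays, black lines the means, grey bars limma's 95% intervals of the mean, and dashed lines the FC threshold of 1.3. The 4 ratios of *xbp1* lie between 0.46 and 0.67, whereas those of *atf3* range from 0.01 to 1.00. Under scaling to spike-in RNA the means of *dnajb9*, *atf4* and *ddit3* turn negative, and under median centring without lowess those of *hspa5* and *hsp90b1* turn positive.

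The sequences of the 60-base probes show which part of a transcript was read, and some of them are given here as the array holds them, 5′ to 3′. The probe of *xbp1* is shown since *xbp1* had the largest mean ratio of the 10 genes, at chr8:7697982-7698041 (EquCab1, plus strand). A probe of *hspa5* is shown since *hspa5* is the main target gene of the pathway, at chr25:9592046-9592105 (EquCab1, plus strand). It is the less bright of the 2 *hspa5* probes. The brighter one, which represents *hspa5* in the counts and figures, lies at chr25:9592124-9592183 and is not printed.
xbp1: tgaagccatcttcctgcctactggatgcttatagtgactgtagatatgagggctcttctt
hspa5: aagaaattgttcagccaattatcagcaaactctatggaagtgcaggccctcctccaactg

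*Xbp1* encodes the transcription factor that is made from the mRNA spliced by the ER sensor IRE1. Its control (Cy3) signals were 2221, 2003, 2442 and 1941 on arrays 1 to 4, and its HMB-treated (Cy5) signals were 3097, 2758, 3888 and 2775. The log2 ratios were 0.48, 0.46, 0.67 and 0.52. Each array had the higher signal in the HMB-treated group, and the 4 HMB-treated values did not overlap with the 4 control values. How many of all tested symbols were separated in this way was not counted. By absolute mean ratio, *xbp1* lay at percentile 82.6 of the 8336 tested symbols. The mean log2 ratio was 0.53 ± 0.10 (SD, n = 4; 95% interval 0.37 to 0.69), an FC of 1.45, with an adjusted p of 0.00132 (limma). The interval reached below the FC threshold, and limma's treat, which tests against an FC of 1.3 rather than no change, gave an adjusted p of 0.186. The rise is relative to the rest of the array: with scaling to spike-in RNA, which lowered the median of all tested probes by 0.41, the mean was 0.12 and was not called. The array has 1 probe for *xbp1*, thus spliced and unspliced mRNA were not measured separately.

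The 3 gene symbols whose 4 ratios lay nearest to those of *xbp1* were *fam162a* (root mean square difference 0.0521 over 4 arrays, mean log2 ratio 0.55), *ell2* (0.0555, mean 0.54) and *rras* (0.0565, mean 0.56). With 4 arrays and 8336 symbols, such closeness is a description only.

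*Atf6* encodes the other ER-responsive transcription factor among the 10 genes, which is cut in the Golgi under stress. Its signals were low, from 205 to 280 in the control and from 199 to 249 in the HMB-treated group, and thus overlapped. Its log2 ratios were -0.38, -0.02, -0.17 and -0.04, all below 0. The mean was -0.15 ± 0.16 (SD, n = 4), with an adjusted p of 0.168 (limma).

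**Figure D2:**
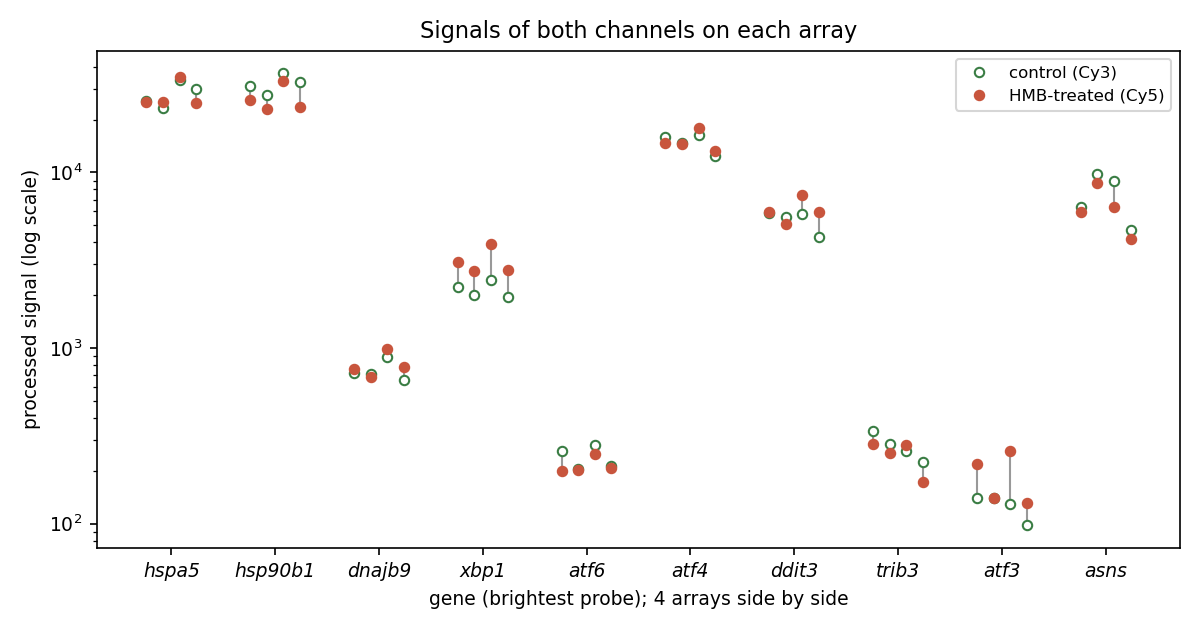
Processed signal (log scale, y axis) of the brightest probe of each gene (x axis) in the control (Cy3, open circles) and the HMB-treated group (Cy5, filled circles), with the 4 arrays side by side and a line joining both channels of 1 array. *Hspa5* and *hsp90b1* lie between 22872 and 36696 on every array, whereas *atf3* lies between 97.8 and 260. Levels of different probes are not comparable, and the HMB-treated signals of *xbp1* (2758 to 3888) lie above its control signals (1941 to 2442).

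The ER chaperones were represented by *hspa5*, *hsp90b1* and *dnajb9*, of which 0 were called. *Hspa5* encodes BiP, the HSP70 of the ER, which holds the sensors inactive in unstressed cells. Its brighter probe had control signals of 25612, 23372, 33677 and 29711 and HMB-treated signals of 25135, 25278, 35166 and 24903, which overlapped. This gave log2 ratios of -0.03, 0.11, 0.06 and -0.25. The mean was -0.03 ± 0.16 (SD, n = 4; 95% interval -0.22 to 0.17), with an adjusted p of 0.803 (limma). The other probe, printed above, had ratios of -0.09, 0.06, 0.08 and -0.35 and a mean of -0.08 ± 0.20, so that both probes placed array 4 lowest.

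*Hsp90b1*, which encodes GRP94, the HSP90 of the ER, had control signals of 31199, 27793, 36696 and 32545 and HMB-treated signals of 25997, 22872, 33132 and 23570. The HMB-treated signal was the lower one on every array, although the ranges overlapped. The log2 ratios were -0.26, -0.28, -0.15 and -0.47, with a mean of -0.29 ± 0.13 (SD, n = 4; 95% interval -0.47 to -0.11). The adjusted p was 0.0190 (limma), but the 1.22-fold difference was under the FC threshold and the gene was not called. This difference varied with the normalization. With median centring in place of lowess, the mean of *hsp90b1* was 0.02 and that of *hspa5* 0.27, neither of which was called. With normexp and loess the mean of *hsp90b1* was -0.30 (adjusted p = 0.00432, limma). Without background correction but with loess it was -0.31 (adjusted p = 0.00392, limma), and it was called in neither case. The cause was not tested. *Dnajb9*, which encodes an HSP40 co-chaperone of BiP, had ratios of 0.08, -0.06, 0.15 and 0.25 at signals of 658 to 991. Its mean was 0.10 ± 0.13 (SD, n = 4), with an adjusted p of 0.273 (limma).

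*Atf4* itself, the factor at which the ER stress and amino acid responses meet, had control signals between 12399 and 16411 and HMB-treated signals between 13270 and 17804. The 4 arrays gave log2 ratios of -0.12, -0.02, 0.12 and 0.10, i.e., 2 arrays on each side of 0. The mean was 0.02 ± 0.11 (SD, n = 4; 95% interval -0.15 to 0.19), with an adjusted p of 0.827 (limma). ATF4 is regulated mostly at translation, which the array does not measure. The intervals of 4 genes (*hspa5*, *dnajb9*, *atf6* and *atf4*) lay wholly within the FC threshold on both sides, as did those of 40.6% of all tested symbols.

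*Ddit3* encodes CHOP, a factor linked to cell death under lasting ER stress. Its control signals were 5866, 5540, 5826 and 4316 and its HMB-treated signals 5964, 5108, 7446 and 5984. The ratios were 0.02, -0.12, 0.35 and 0.47, thus arrays 3 and 4 were well above the other two. The mean was 0.18 ± 0.28 (SD, n = 4; 95% interval -0.08 to 0.45), with an adjusted p of 0.217 (limma). A rise past the FC threshold therefore remained within the interval.

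*Trib3*, which encodes a pseudokinase induced by ATF4 and CHOP, had ratios of -0.24, -0.17, 0.10 and -0.38, with array 3 alone above 0. The mean was -0.17 ± 0.20 (SD, n = 4), with an adjusted p of 0.157 (limma). Its signals were low, between 173 and 336, and its 60-base probe was placed over 3068 bases of chromosome 22 in the files, so that its match to the genome is split.

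*Asns* encodes asparagine synthetase, a classical target gene of the amino acid response. Its control signals were 6353, 9816, 8954 and 4683, and its HMB-treated signals were 5941, 8745, 6320 and 4165. The HMB-treated signal was the lower one on every array, although the ranges overlapped. Its ratios on the log2 scale were -0.10, -0.17, -0.50 and -0.17, all below 0 and lowest on array 3. The mean was -0.23 ± 0.18 (SD, n = 4; 95% interval -0.44 to -0.03), with an adjusted p of 0.0627 (limma), and the gene was not called.

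*Atf3* encodes a stress-induced factor of the ATF/CREB family and is a target of ATF4. It was represented by 5 probes that lie from chr5:17272759-17272818 to chr5:17272763-17272822 (EquCab1, minus strand), each starting 1 base upstream of the one before. They are printed since only the last was called, and capitals mark the 56 bases that all 5 share.
atf3 probe 1: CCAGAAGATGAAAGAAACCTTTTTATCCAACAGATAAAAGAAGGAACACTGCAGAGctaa
atf3 probe 2: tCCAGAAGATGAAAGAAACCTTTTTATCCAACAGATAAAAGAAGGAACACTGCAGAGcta
atf3 probe 3: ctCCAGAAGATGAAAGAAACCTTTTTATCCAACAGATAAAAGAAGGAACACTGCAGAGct
atf3 probe 4: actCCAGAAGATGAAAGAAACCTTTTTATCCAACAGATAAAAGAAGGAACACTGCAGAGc
atf3 probe 5: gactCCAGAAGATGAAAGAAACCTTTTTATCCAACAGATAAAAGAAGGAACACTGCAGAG

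Probe 5, the brightest, had control signals of 140, 139, 130 and 97.8 and HMB-treated signals of 220, 140, 260 and 131. The log2 ratios were 0.65, 0.01, 1.00 and 0.42, thus array 2 showed almost no difference and array 3 the widest. The mean was 0.52 ± 0.42 (SD, n = 4; 95% interval 0.15 to 0.89), an FC of 1.43, with an adjusted p of 0.0330 (limma). The other 4 probes had means between 0.20 and 0.33 and were not called, with adjusted p-values (limma) between 0.0620 and 0.229.

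All 5 probes ranked the arrays in the same order. Their ratios averaged 0.47 on array 1, -0.05 on array 2, 0.70 on array 3 and 0.21 on array 4. The SD over the 5 probes within an array was 0.07 to 0.17, whereas the SD of a probe over the 4 arrays was 0.30 to 0.42. The probes overlap and are not replicates of one another. The mean ratio over the 5 probes was 0.33, with an adjusted p of 0.0692 (limma), and was not called. All signals of *atf3* were dim, between 81.8 and 260. The call of probe 5 was lost without array 1 (adjusted p = 0.0827, limma), without array 3 (0.0981) and without array 4 (0.0680), and was kept without array 2 (0.0120).

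**Figure D3:**
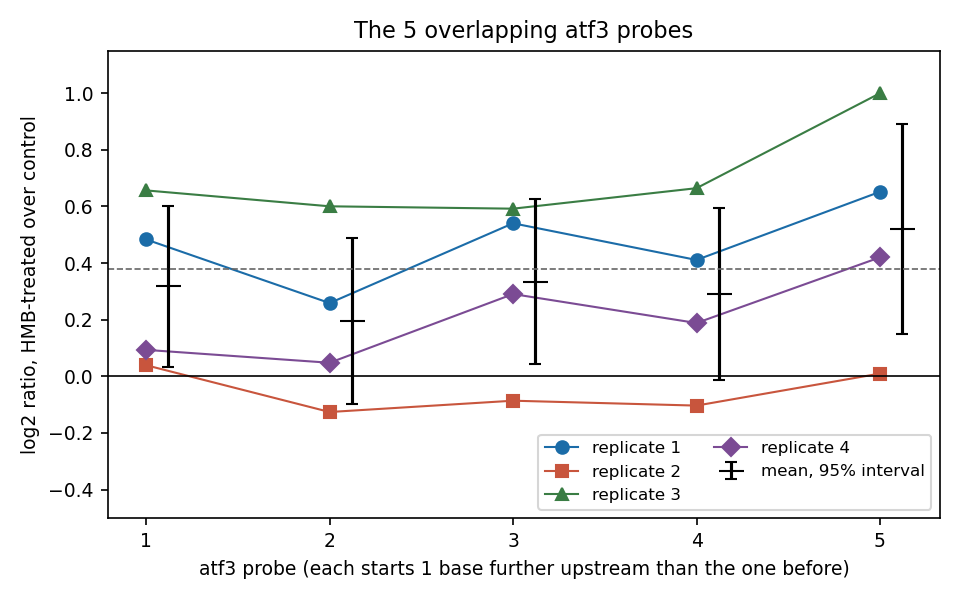
Log2 ratio (HMB-treated over control, y axis) of the 5 overlapping *atf3* probes (x axis, in the order printed above). Colored lines join the values of 1 array, black bars are the mean with limma's 95% interval, and the dashed line is the FC threshold. Array 2 lies near 0 and array 3 highest for every probe, and only the mean of probe 5, 0.52, is above the threshold.

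Array 3 gave the highest ratio for 5 of the 10 genes and array 2 the lowest for 4. The number of genes above 0 was 4 on array 1, 3 on array 2, 7 on array 3 and 5 on array 4. Over all tested symbols, the median log2 ratio was -0.06, -0.09, -0.10 and -0.09 on arrays 1 to 4. None of the 15 probes had 1 array standing apart by Dixon's test.

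The other genes of the pathway were read from 4 lists with 95 genes in all, of which 81 were tested. Among these 81, 6 were called higher and 8 lower, beside 10.1% and 17.2% of all tested symbols, and their median log2 ratio was -0.005.

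Of the ER stress sensors and genes of eIF2alpha phosphorylation, 2 of 13 tested were called higher and 0 lower by their brightest probes. For *ppp1r15b* the brightest probe had a mean of -0.35 (adjusted p = 0.00904, limma), under the FC threshold, although 3 of its 5 probes were called lower. *Bak1*, a pro-apoptotic BCL2 family member, rose by a log2 ratio of 0.89 ± 0.32 (0.65, 1.36, 0.83 and 0.72 on the arrays, with an adjusted p of 0.00218, limma), although its signals were at most 85.2 and its control channel was well above background on 3 arrays only. With normexp or without background correction, each followed by loess, its mean was 0.29 or 0.377, just under the FC threshold in the latter case, and it was not called. *Traf2*, an adaptor that binds IRE1, rose by 0.80 ± 0.21 (0.99, 0.75, 0.92 and 0.53, with an adjusted p of 0.000972, limma). Its signals were also dim, between 71.3 and 189, and its mean was 0.379 with normexp and loess, at the edge of the FC threshold, 0.50 without background correction and 0.38 with scaling to spike-in RNA, being called in each case. Both genes also act outside the ER stress response. The sensor gene *ern1*, which encodes IRE1, was not tested since its probe was too dim for the filter, and *eif2ak3*, which encodes PERK, had a mean of 0.16 ± 0.27 (adjusted p = 0.271, limma). Among the other eIF2alpha kinase genes, *eif2ak4* had a mean of -0.34 ± 0.13 (-0.50, -0.37, -0.28 and -0.21, with an adjusted p of 0.0102, limma). This was under the FC threshold, and *eif2ak4* was not called. The mean of *eif2ak1* was 0.004 (adjusted p = 0.969, limma).

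Of the genes of ER folding and quality control, 1 of 21 tested was called higher and 0 lower, and the means ranged from -0.20 to 0.41. *Ero1l*, an oxidase that serves disulfide formation, rose by 0.41 ± 0.24 (0.29, 0.22, 0.76 and 0.37, with an adjusted p of 0.0175, limma). Its call was lost without array 3, where the mean was 0.29, and with scaling to spike-in RNA its mean was -0.004. Of the 15 alternatives apart from leaving out arrays, 8 called it. The call was also lost with treat, with normexp and loess (mean 0.23) and without background correction (0.37). It was lost as well without the filter on dim probes (adjusted p = 0.0845, limma) and with the channels as 8 samples (adjusted p = 0.104, limma).

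Of the genes of ER-associated degradation, 1 of 17 tested was called higher and 2 lower by their brightest probes. That of *edem3* was not called (mean -0.29, adjusted p = 0.0975, limma), although 2 of its 3 probes were called lower. *Edem1*, which takes misfolded glycoproteins to degradation and is a target of XBP1, rose by 0.44 ± 0.10 (0.36, 0.38, 0.59 and 0.41, with an adjusted p of 0.00317, limma). Its call was lost with scaling to spike-in RNA, where the mean was 0.021, with treat (adjusted p = 0.933, limma) and with the channels taken as 8 samples without the replicate block (adjusted p = 0.0678, limma). *Herpud1*, a component of the degradation complex, fell by 0.58 on the log2 scale (SD 0.24, with ratios of -0.75, -0.43, -0.32 and -0.82 and an adjusted p of 0.00481, limma), with all 3 of its probes called. Without lowess its mean was -0.37 and it was not called, nor was it with treat (adjusted p = 0.269, limma). *Vcp*, the ATPase that pulls proteins out of the ER membrane, fell by 0.61 (SD 0.14, with ratios of -0.62, -0.55, -0.47 and -0.80 and an adjusted p of 0.00132, limma), and was not called with treat (adjusted p = 0.0817, limma).

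Of the amino acid response genes and ATF4 targets, 2 of 30 tested were called higher and 6 lower. *Wars*, a tRNA synthetase that interferon also induces, rose by 1.43 ± 0.27 (1.22, 1.55, 1.75 and 1.19, with an adjusted p of 0.000197, limma), the largest ratio of all 81 genes. *Nupr1*, a stress-induced chromatin protein, rose by 0.43 ± 0.24 (0.15, 0.31, 0.56 and 0.69, with an adjusted p of 0.0153, limma). Its call was lost without array 3 (mean 0.38) and without array 4 (0.34), and with scaling to spike-in RNA its mean was 0.013. *Fgf21*, a secreted growth factor, fell by 0.92 (SD 0.28, with ratios of -1.06, -1.26, -0.71 and -0.67 and an adjusted p of 0.00126, limma). Its signals were dim, between 86.4 and 224. With normexp and loess its mean was -0.49, which was still called. *Slc7a11*, a cystine transporter, fell by 0.82 (SD 0.31, with ratios of -0.64, -1.26, -0.57 and -0.80 and an adjusted p of 0.00267, limma). *Gars*, another tRNA synthetase, fell by 0.61 (SD 0.11, with ratios of -0.71, -0.57, -0.49 and -0.69 and an adjusted p of 0.000833, limma), but its mean was -0.16 without lowess and was then not called. With treat it was not called either (adjusted p = 0.0520, limma). *Wars* and *gars* therefore moved in opposite directions on all 4 arrays, and the other 6 tRNA synthetase genes of the list were not called, with means between -0.28 and 0.11.

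**Figure D4:**
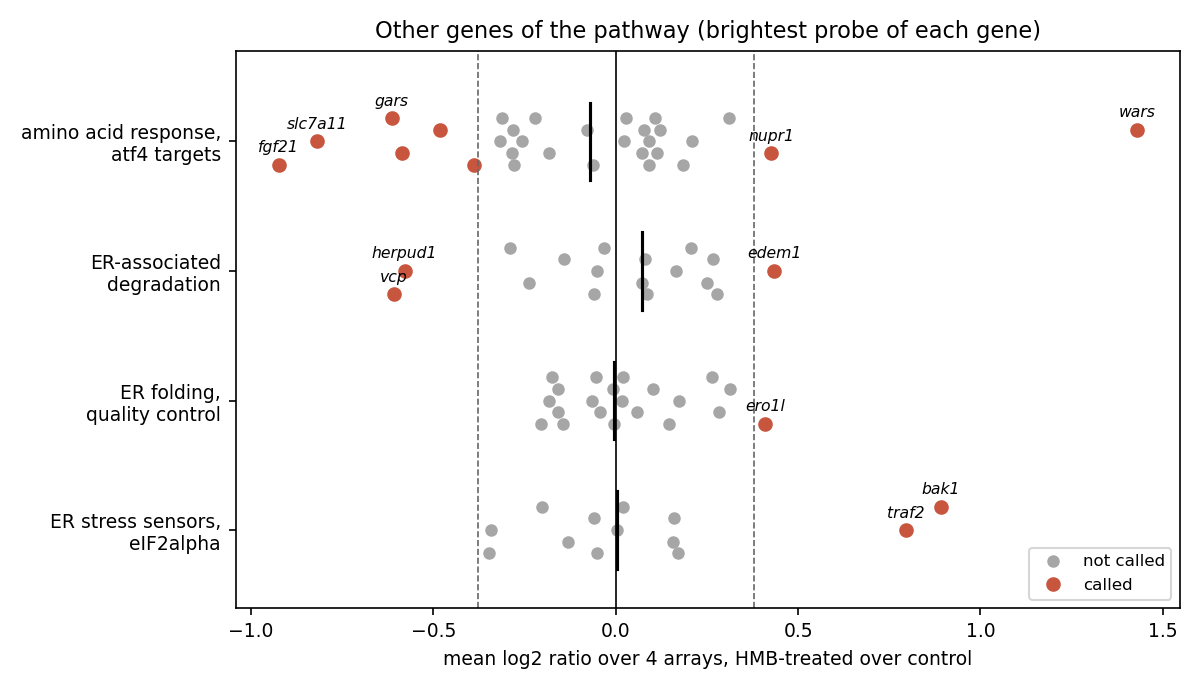
Mean log2 ratio over 4 arrays (HMB-treated over control, x axis) of the 81 tested genes of the 4 pathway lists (rows). Red circles are called genes, with those described in the text named, vertical bars are the medians of the lists and dashed lines the FC threshold. The medians lie between -0.07 and 0.07, and *wars* is the gene farthest from 0, at 1.43. With scaling to spike-in RNA the mean of *ero1l* is -0.004.

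Cell type markers moved between the groups as well. Their counts stand beside 10.1% of all tested symbols called higher and 17.2% called lower, with a median log2 ratio of -0.09. Of 10 markers of myogenic cells, 9 were tested and 6 were called lower (median log2 ratio -0.93), and their summed signal was 169987 to 192320 in the control and 65789 to 104739 in the HMB-treated group. Most of this sum came from *myh3* and *acta1*, with control signals of 80352 to 88921 and 60999 to 69617. The markers *myod1*, *myog* and *mymk* were not called, with means of 0.32, 0.03 and -0.09, whereas that of *myf5* was -1.49. Of 8 fibroblast markers, all were tested and 5 were called higher (median 0.54), with summed signals of 444306 to 543898 in the control and 442819 to 687618 in the HMB-treated group, which overlapped. This sum was made up mostly by *col1a2* and *col3a1*, whose brightest probes were not called, so it says little about the 5 called markers. Of 8 leukocyte markers, 4 were tested and 3 were called higher (median 0.49), with summed signals of 16425 to 20897 and 20176 to 31906. These include *ptprc*, which was found by its gene name in the probe description only. Of its 15 probes 6 were tested, and its brightest probe made up most of the sum. The markers *cd3e*, *itgam*, *csf1r* and *lyz* did not pass the filter on dim probes. None of the 5 endothelial markers with a probe and none of the 4 adipocyte markers was tested. In these bulk samples, fewer cells of a type and less RNA per cell cannot be told apart, and the part of the markers in the ratios of *xbp1*, *atf3* and the other genes was not tested.

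**Figure D5:**
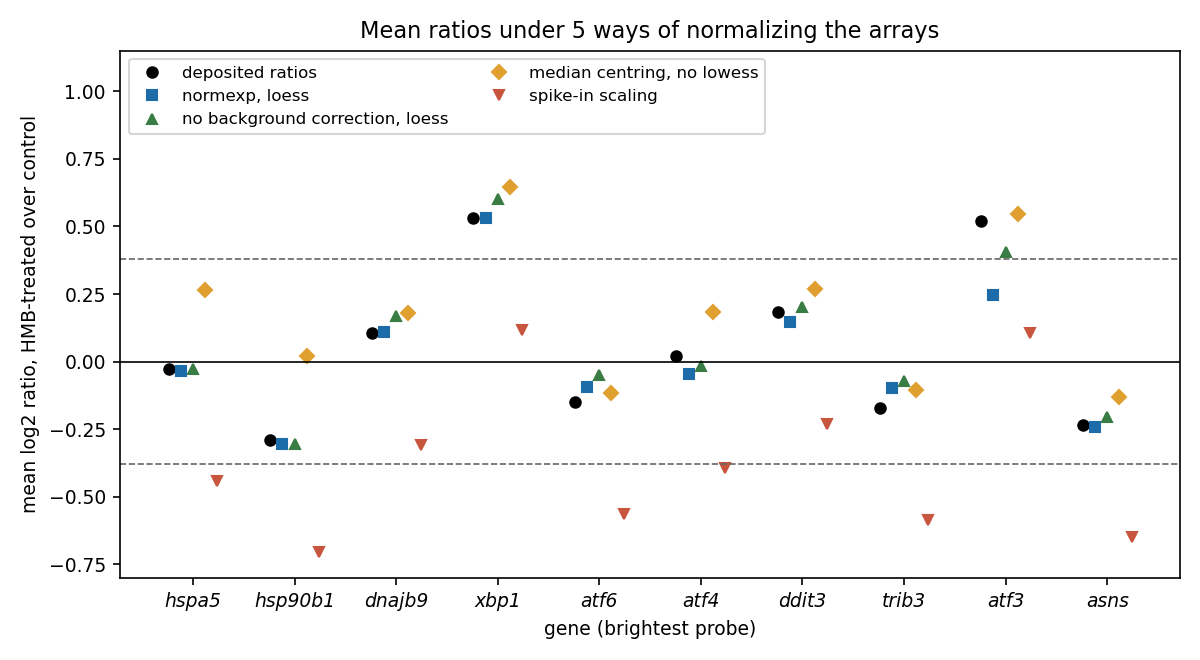
Mean log2 ratio (HMB-treated over control, y axis) of the 10 genes (x axis) for the deposited ratios and 4 other ways of normalizing the arrays; dashed lines mark the FC threshold. *Xbp1* stays above 0.5 except with scaling to spike-in RNA (0.12), which lowers every gene and turns *dnajb9*, *atf4* and *ddit3* negative, whereas leaving out lowess raises *hspa5* to 0.27 and *hsp90b1* to 0.02.

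With spike-in RNA as the reference, *xbp1* (0.12) and *atf3* (0.11) were the only 2 of the 10 genes with a mean above 0, and 6 were called lower (*hspa5*, *hsp90b1*, *atf6*, *atf4*, *trib3* and *asns*), beside 64.9% of all tested symbols. Relative to the other probes of each array, the ratios were the same as above. Of the probes called across the array, 42.5% were higher in the HMB-treated group with the deposited ratios, 55.0% with normexp and loess, 60.1% without background correction, 52.5% with median centring and 8.28% with spike-in scaling.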

How the data were processed

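Gene expression was measured on 4 two-color Agilent horse arrays (annotated on EquCab1). The intensity values in the deposited scanner files are the spot signals of each channel, for which the authors subtracted the background and applied linear and lowess normalization in Feature Extraction (version 10.10.1.1 in the file headers). The deposited log10 values are the ratios of the normalized Cy5 over Cy3 signals, and the authors' table holds the same ratios. From these, log2 ratios were calculated here. No normalization between arrays was added.

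Controls were left out, as was any spot that Feature Extraction had marked as uneven or as an outlier among its copies. A tested probe had 1 channel well above background on all 4 arrays and at least 3 ratios. The ratios were tested against 0 with limma 3.58.1 in R 4.3.3 (the methods' t-test was an alternative) with the Benjamini-Hochberg correction over 24669 probes, and called at an FDR of 0.05 with an FC of 1.3 or more. In each channel 55.2% to 61.8% of spots were above background. The number of arrays limits the precision. The script was tested on simulated data.

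A gene was represented by its brightest tested probe, and every probe of the 10 genes was examined. Symbols were taken from the files, then from RefSeq identifiers and synonyms, then from the description. The 10 genes and all lists were chosen with earlier results of these data known. Of the 4 pathway lists, the text names up to 3 called genes with the largest rise and fall and the same sign on all arrays. Other genes were added after their values were seen: *ern1* and *eif2ak3* as sensors, *eif2ak4* and *eif2ak1* as kinase genes, and *ppp1r15b* and *edem3* for their other probes. A search for promoter motifs was not run. The alternatives were other tests, normalizations and filters, and each array left out in turn.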

Additional observations from a re-analysis of the deposited data

How the results depend on the processing

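Of 25 genes recomputed (the 10 genes, 12 other genes of the pathway and the 3 nearest to *xbp1*), *wars*, *traf2*, *slc7a11* and *fgf21* kept their call and direction under every alternative run, although with normexp and loess the mean of *traf2* went from 0.80 to 0.379, at the edge of the FC threshold, and that of *fgf21* from -0.92 to -0.49. With the deposited ratios, 7046 probes were called, among them 2 of the 15 probes of the 10 genes; by symbol 1 of the 10 genes (*atf3*) was called higher and 0 lower, and 6 and 8 other genes of the pathway were called higher and lower. The methods' t-test called 0 of these genes higher and 1 of the probes (*xbp1*). With treat, the counts were 2822 probes across the array, 0 genes, 0 of their probes and 3 higher and 2 lower pathway genes. With normexp and loess they were 3538 probes, 0 genes and 1 probe, and *atf4* turned to -0.046. Without background correction 4439 probes were called and *atf4* was at -0.017. Median centring without lowess turned *hspa5* to 0.27 and *hsp90b1* to 0.021. Scaling to spike-in RNA called 16753 probes, 0 genes higher and 4 lower by symbol, 7 of their probes, and 3 higher and 47 lower pathway genes. It turned *dnajb9* to -0.31, *atf4* to -0.39, *ddit3* to -0.23, *eif2ak3* to -0.26 and *ero1l* to -0.0040, and it ended the calls of *xbp1*, *atf3*, *edem1* and *nupr1*. The correction for probe GC content turned *atf4* to -0.031. Without the filter on dim probes, 0 genes higher and 1 probe were called. The mean over the probes of a gene called 0 genes higher, and 6 pathway genes higher and 10 lower. With no replicate block (the channels as 8 samples), 0 genes higher, 1 probe and 3 higher pathway genes were called. Treat also ended the calls of *xbp1*, *atf3*, *ero1l*, *edem1*, *herpud1*, *vcp*, *nupr1* and *gars*. The fit with no replicate block ended those of *atf3*, *ero1l*, *edem1* and *nupr1*. Leaving out each array in turn gave 0 to 1 genes called higher and 1 to 4 of their probes, and means of -0.073 to 0.049 for *hspa5* and -0.012 to 0.066 for *atf4*. The cause of these changes was not tested. The methods' t-test also ended the calls of *ero1l*, *herpud1* and *nupr1*. The probes of *atf3* were dim (signals of 81.8 to 260), and whether this bears on their ratios was not tested.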
